A study of Homo sapiens with 4 samples.

Results

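Aminoacyl-tRNA synthetases are the enzymes that join each amino acid to its tRNA. The 35 genes described here were chosen by symbol from a list of the family, and all 35 had a row in both RNA tables, of 13092 genes with a row in either. A symbol ending in 2 marked the 16 mitochondrial enzymes, and the other 19 genes were taken as cytosolic. The study sequenced RNA of RKO, a line derived from a human colon carcinoma, as 2 libraries: HADH-S_OE, from cells with the genotype HADH-S overexpression, and CTL, from cells labelled WT. HADH encodes a mitochondrial enzyme that oxidises fatty acids. The series title speaks of a nuclear isoform of it, and HADH-S is the form overexpressed. The expression construct, its promoter, the time after its introduction and whether the line is a single clone are not stated in the labels. The chromatin libraries of the series were not analysed here.

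Charging proceeds in 2 steps, since the enzyme first activates the amino acid with ATP and then transfers it to the tRNA. Human cells keep a cytosolic set that serves the ribosomes of the cytoplasm and a nuclear-encoded mitochondrial set that serves the organelle's own ribosomes. GARS1 and KARS1 each encode both forms of their enzyme, EPRS1 encodes a fused enzyme for glutamate and proline, and FARSA and FARSB encode the subunits of the cytosolic phenylalanine enzyme. Several cytosolic enzymes sit together in the multisynthetase complex. Many cytosolic synthetase genes are known targets of ATF4, the transcription factor of the amino acid response, and WARS1, for tryptophan, is known to be induced by interferon gamma.

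With 1 library per condition there was no replicate check, and nothing below is a test of the condition. The HADH-S library held 6963608 reads assigned to genes and the control library 6773421. HADH had 54.4 RPKM (reads per kilobase of transcript, for a library of fixed size) in HADH-S cells and 26.5 RPKM in control cells, a ratio of 2.05 with a counting interval of 1.79 to 2.35, in the direction of the label. The epithelial keratin gene KRT18 had 93.8 RPKM in HADH-S cells and 91.7 RPKM in control cells, and EPCAM had 9.57 RPKM in HADH-S cells and 8.20 RPKM in control cells. Of the other epithelial and colon markers, KRT8 and CDX2 were detected, while KRT19, CDH1, VIL1 and CDX1 had no row in either table. The 4 leukocyte and 3 endothelial markers had no row, and the 5 fibroblast markers summed to 0.0751 RPKM in HADH-S cells and 0.0553 RPKM in control cells. In such bulk libraries, fewer cells expressing a gene and less RNA per cell cannot be told apart.

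The promoters of several members hold the letters of the DNA element through which ATF4 acts, and these stretches are shown because 7 of the 8 belong to genes known as ATF4 targets. RefSeq promoter windows (GRCh38.p14), which reach from upstream of an annotated start to just after it, were found for 30 of the 35 members and searched on both strands for the letters TGATGNAA, the C/EBP-ATF response element. AARS2, LARS1, VARS1, VARS2 and YARS1 were the other 5. The 30 members had 39 windows, since 9 had 2 each, and a member was counted where any of its windows held the letters. Of the 39, 28 stood at the outer start of the gene and the rest at a start inside it. The element was found in 8 of the 30 members, against 4.46% of 27305 genes, and in 8 of their 39 windows, against 3.62% of all 35116 windows. A gene was likewise counted where any of its windows held the letters. The members' windows were limited to the primary chromosome of the gene, while those of all genes were not. The matching windows of TARS1 and GARS1 belong to starts 269 and 143 bases inside the gene, and the other 6 to the outer start. It was present in 1 of 14 mitochondrial members with a window, YARS2, and in 7 of 16 cytosolic members. In no member did it overlap the interferon-related motif described further on. A match describes the letters only and is no evidence of a bound factor. Each stretch below is written 5′ to 3′ along its gene's strand, with the element (on either strand) in capitals.
AARS1 (chr16:70289656-70289723, minus strand): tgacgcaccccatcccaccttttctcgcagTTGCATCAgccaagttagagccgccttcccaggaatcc
CARS1 (chr11:3057394-3057455, minus strand): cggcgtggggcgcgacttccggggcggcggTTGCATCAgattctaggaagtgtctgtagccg
GARS1 (chr7:30594815-30594882, plus strand): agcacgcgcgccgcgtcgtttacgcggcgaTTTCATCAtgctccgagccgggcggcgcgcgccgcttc
IARS1 (chr9:92293673-92293740, minus strand): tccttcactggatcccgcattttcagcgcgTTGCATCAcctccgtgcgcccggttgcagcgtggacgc
MARS1 (chr12:57488034-57488097, plus strand): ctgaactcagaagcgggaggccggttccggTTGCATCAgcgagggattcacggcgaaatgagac
NARS1 (chr18:57621807-57621852, minus strand): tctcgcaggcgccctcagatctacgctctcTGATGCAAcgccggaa
TARS1 (chr5:33440937-33440994, plus strand): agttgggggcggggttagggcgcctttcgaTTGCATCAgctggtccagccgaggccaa
YARS2 (chr12:32756057-32756124, minus strand): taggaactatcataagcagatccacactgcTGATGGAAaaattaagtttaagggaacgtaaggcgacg

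The synthetase genes differed little between the libraries, in either compartment. On the scale of log2((RPKM + 1) in HADH-S cells / (RPKM + 1) in control cells), called the log2 value from here on, the members ran from -0.36 for PARS2 to 0.27 for FARS2, with a median of -0.02. The 16 mitochondrial genes had a median of -0.01 and the 19 cytosolic genes a median of -0.05, a difference of 0.04. Over the 10331 genes whose RPKM averaged at least 1, which included all 35 members, the median was 0.01, the middle 95% ran from -0.36 to 0.49 and the middle 50% from -0.11 to 0.14. Of the members, 22 lay within that middle 50% and 34 within the middle 95%, with PARS2 outside.

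By a rule of size of 1.2-fold on the log2 scale, 1 member was higher in HADH-S cells (FARS2) and 1 was lower (PARS2), which is 2.86% of the members each way. FARS2 lay at the limit and under it when the libraries were rescaled. Of all tested genes, 11.5% were higher and 6.76% were lower by the same rule. Among the 8629 tested genes with at least the mean reads of PARS2, the least read member, a subset chosen after the values were seen, 8.74% were higher and 5.23% lower. No member reached 2-fold, against 0.3% of tested genes higher and 0.0484% lower.

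A second description used the exact 95% interval that counting error gives for each ratio of RPKM. That interval lay above 1 for 3 members, FARSA, VARS1 and GARS1, and below 1 for 4, FARSB, IARS1, KARS1 and IARS2. These counts are 8.57% and 11.4% of the members, beside 13.8% of tested genes above 1 and 11.6% below. The interval covers counting error only. Relative to counting error, the log ratios had a root mean square of 1.85 over the members and 1.91 over the tested genes, so these intervals are narrower than the spread between the libraries.

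**Figure D1:**
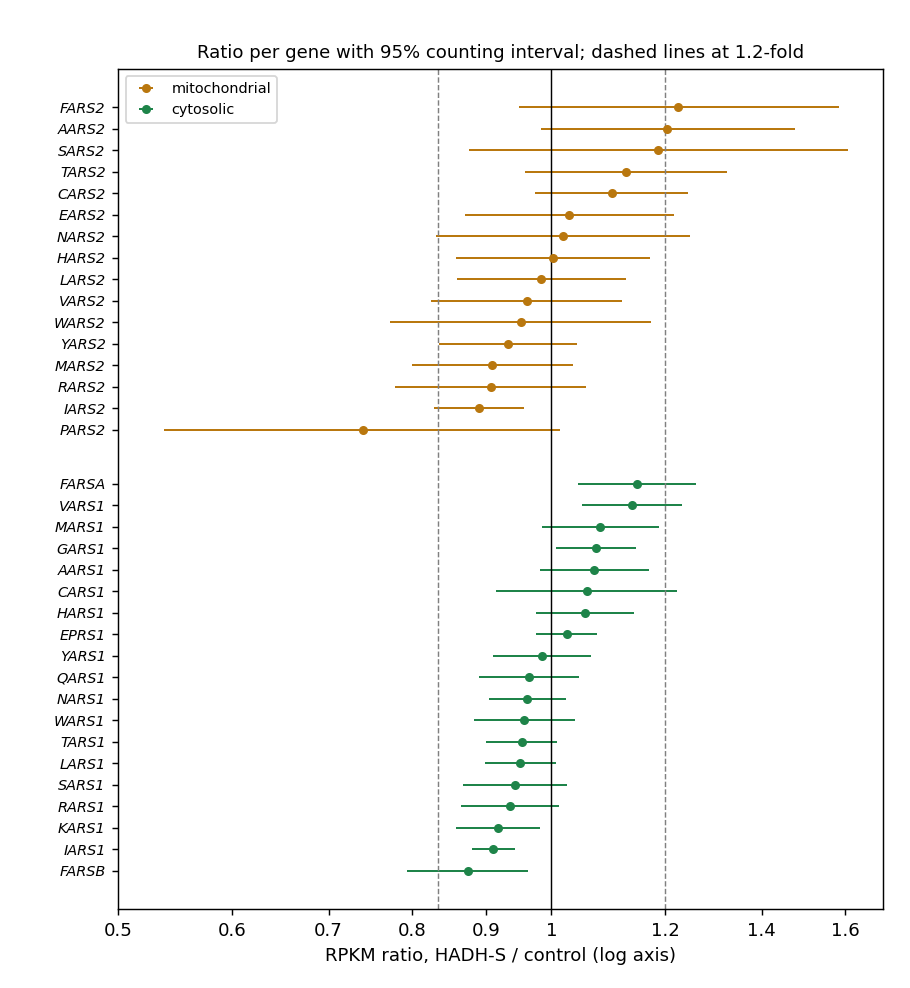
Ratio of RPKM, HADH-S over control, for each of the 16 mitochondrial and 19 cytosolic synthetase genes, on a log axis, with points at the ratio and bars for the 95% counting interval, and with dashed lines at 1.2-fold. The mitochondrial genes have the wider bars, with PARS2 the lowest point at 0.740, while FARSA and VARS1 head the cytosolic genes and FARSB and IARS1 close them.

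The level of a gene varied far more across the family than between the libraries. Mitochondrial genes ran from 4.45 to 59.2 RPKM in HADH-S cells and from 5.45 to 66.5 RPKM in control cells, with medians of 15.5 RPKM in HADH-S cells and 14.8 RPKM in control cells. Cytosolic genes ran from 16.8 to 197 RPKM in HADH-S cells and from 19.3 to 216 RPKM in control cells. Their median was 73.2 RPKM in HADH-S cells and 77.0 RPKM in control cells, so they were the more abundant set in both libraries. The order of the 35 levels was nearly the same in both libraries (Spearman's rho 0.994 across genes, which are not independent replicates). In the HADH-S library IARS2, CARS2 and YARS2 were the 3 highest mitochondrial genes, and IARS1, TARS1 and GARS1 the 3 highest cytosolic ones.

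Summed over members, the family made up 0.562% of assigned reads in HADH-S cells and 0.576% in control cells. The mitochondrial genes summed to 324 RPKM in HADH-S cells and 330.03 RPKM in control cells, a ratio of 0.982 that was 1.01 without IARS2. The cytosolic genes summed to 1520 RPKM in HADH-S cells and 1544 RPKM in control cells, a ratio of 0.984 that was 0.996 without IARS1. The mitochondrial part was 17.6% of the family's summed RPKM in both libraries. Counted as shares of assigned reads, not per length, the ratios were 0.971 for the mitochondrial genes (interval 0.937 to 1.01) and 0.978 for the cytosolic genes (interval 0.963 to 0.993). These intervals cover the counting error of the pooled reads only, and a sum follows its most abundant genes. Relative to counting error, the log ratios of the cytosolic genes had a root mean square of 2.15.

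**Figure D2:**
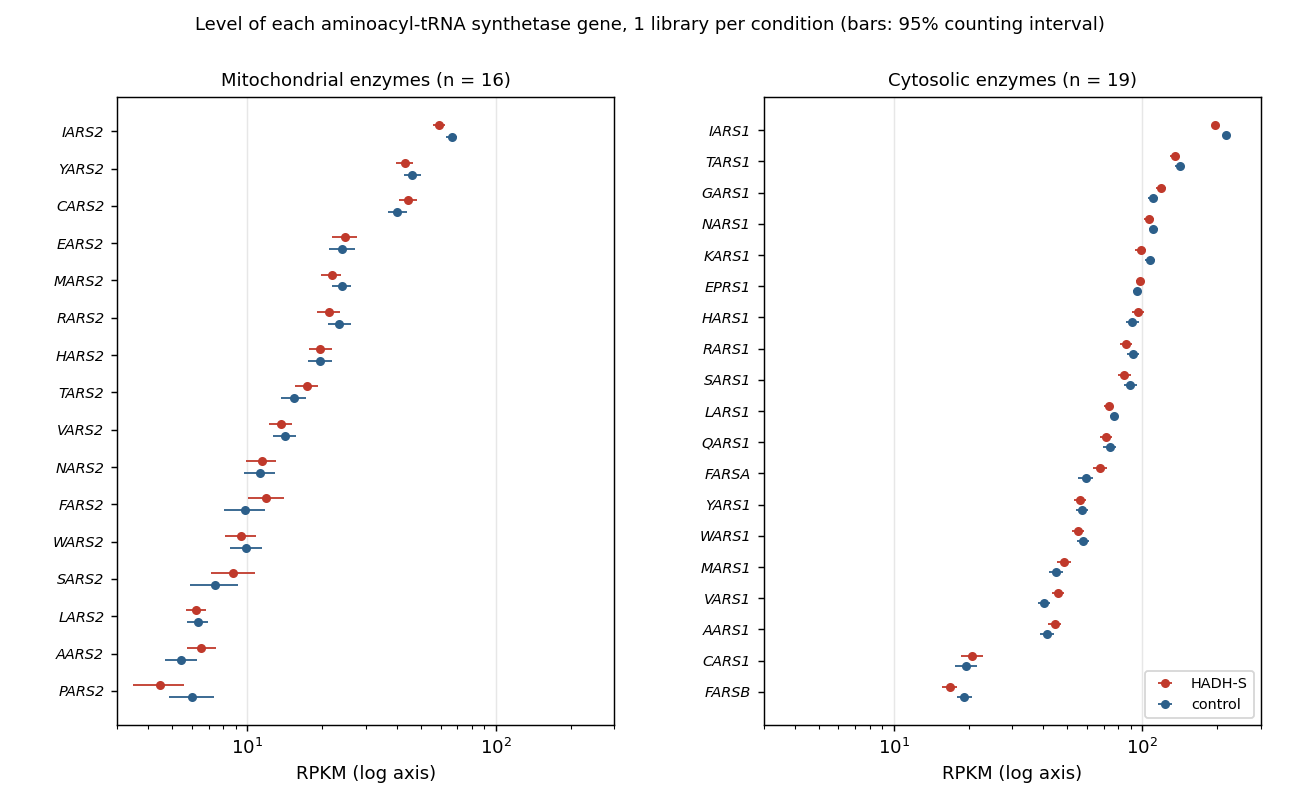
Level of each synthetase gene in RPKM on a log axis, with the HADH-S library in red above the control library in blue and bars for the exact 95% Poisson interval of each level. The cytosolic genes reach 197 RPKM in HADH-S cells and 216 RPKM in control cells at IARS1, and in most rows the points of both libraries lie close together.

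Among the cytosolic genes, the largest log2 values belonged to FARSA and VARS1. FARSA (ENSG00000179115) lies on chromosome 19 from 12922479 to 12933711 in RefSeq's GRCh38.p14 annotation. FARSA, the alpha subunit that holds the catalytic site of phenylalanyl-tRNA synthetase, had 67.8 RPKM from 971 reads in HADH-S cells and 59.1 RPKM from 824 reads in control cells, a log2 value of 0.19. Its ratio was 1.15 (interval 1.04 to 1.26). VARS1, the valine enzyme, had 45.8 RPKM from 1311 reads in HADH-S cells and 40.3 RPKM from 1121 reads in control cells, with a log2 value of 0.18 and a ratio of 1.14 (interval 1.05 to 1.23).

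MARS1, the methionine enzyme, had 48.6 RPKM in HADH-S cells and 44.9 RPKM in control cells, a ratio of 1.08 (interval 0.985 to 1.19). The gene overlaps the coding genes ARHGAP9 and DDIT3, so reads in the shared stretch cannot be assigned with certainty. GARS1, which supplies glycyl-tRNA to both compartments, had 119 RPKM from 2018 reads in HADH-S cells and 111 RPKM from 1827 reads in control cells. Its ratio of 1.07 (interval 1.01 to 1.15) was the smallest of those whose interval excluded 1 from above.

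The lowest cytosolic log2 value belonged to FARSB (ENSG00000116120, chromosome 2 from 222566899 to 222656092), the beta subunit of the same phenylalanine enzyme as FARSA. FARSB had 16.8 RPKM from 793 reads in HADH-S cells and 19.3 RPKM from 882 reads in control cells, a log2 value of -0.18 and a ratio of 0.875 (interval 0.794 to 0.964). The subunits thus lay at opposite ends of the cytosolic genes. FARSA stood at 4.02 times the RPKM of FARSB in HADH-S cells and at 3.07 times in control cells, and the ratio of these ratios was 1.31 (interval 1.14 to 1.501). The FARSB reads were scaled by a transcript of 6761 nt and the FARSA reads by one of 2057 nt. That scaling affects the ratio within a library and cancels between libraries. Longer transcripts tended to have lower log2 values over all tested genes (Spearman's rho -0.19), and the part of length here was not tested.

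IARS1, the isoleucine enzyme and the best covered member, had 197 RPKM from 6382 reads in HADH-S cells and 216 RPKM from 6812 reads in control cells. Its log2 value was -0.13 and its ratio 0.911 (interval 0.881 to 0.943). KARS1, the lysine enzyme of both compartments, had 98.5 RPKM in HADH-S cells and 107 RPKM in control cells, a ratio of 0.918 (interval 0.858 to 0.982). RARS1, the arginine enzyme, had 86.0 RPKM in HADH-S cells and 91.9 RPKM in control cells, a ratio of 0.936 with an interval of 0.866 to 1.01 that included 1.

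EPRS1, the fused glutamate and proline enzyme, had 97.4 RPKM from 3299 reads in HADH-S cells and 95.1 RPKM from 3132 reads in control cells, a ratio of 1.02 (interval 0.975 to 1.08). QARS1, the glutamine enzyme, had 71.2 RPKM in HADH-S cells and 73.8 RPKM in control cells, a ratio of 0.965 (interval 0.890 to 1.05). Both intervals lie within 1.2-fold of 1, as far as counting error goes.

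The 8 other cytosolic genes had log2 values from -0.08 for SARS1 to 0.10 for AARS1, and each of their intervals included 1. Of these, AARS1, CARS1 and HARS1, for alanine, cysteine and histidine, were above 0. YARS1, NARS1, TARS1, LARS1 and SARS1, for tyrosine, asparagine, threonine, leucine and serine, were below 0. Their levels ran from 20.7 RPKM for CARS1 to 135 RPKM for TARS1 in HADH-S cells, and from 19.6 to 141 RPKM for the same genes in control cells. YARS1 overlaps the coding gene S100PBP.

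The mitochondrial genes had fewer reads, with a median of 331.5 in HADH-S cells and 307 in control cells, so their ratios were less precise. The cytosolic genes had a median of 1271 reads in HADH-S cells and 1225 in control cells. The highest log2 value was that of FARS2 (ENSG00000145982, chromosome 6 from 5249934 to 5771583), the single-chain phenylalanine enzyme of the organelle. FARS2 had 11.97 RPKM from 141 reads in HADH-S cells and 9.77 RPKM from 112 reads in control cells, a ratio of 1.22 with an interval of 0.949 to 1.58 that included 1. FARS2 overlaps LYRM4, another coding gene.

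AARS2, for alanine, had 6.55 RPKM in HADH-S cells and 5.45 RPKM in control cells, a ratio of 1.203 (interval 0.983 to 1.48). SARS2, for serine, had 8.81 RPKM from 100 reads in HADH-S cells and 7.43 RPKM from 82 reads in control cells, a ratio of 1.19 (interval 0.877 to 1.61). TARS2, for threonine, had 17.4 RPKM in HADH-S cells and 15.4 RPKM in control cells, a ratio of 1.13 (interval 0.958 to 1.32). None of these differences was detectable beyond counting error at this depth.

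At the other end, PARS2 (ENSG00000162396, chromosome 1 from 54756898 to 54764523), the mitochondrial proline enzyme, had 4.45 RPKM from 73 reads in HADH-S cells and 6.02 RPKM from 96 reads in control cells. Its log2 value of -0.36 was the lowest of the family, and its ratio of 0.740 had an interval of 0.538 to 1.01. IARS2, the isoleucine enzyme, had 59.2 RPKM from 1454 reads in HADH-S cells and 66.5 RPKM from 1589 reads in control cells, a ratio of 0.890 (interval 0.828 to 0.956). It was the mitochondrial gene with the most reads and the 1 whose interval excluded 1.

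RARS2, for arginine, had 21.3 RPKM in HADH-S cells and 23.5 RPKM in control cells, a ratio of 0.907 (interval 0.779 to 1.06). MARS2, for methionine, had 21.9 RPKM in HADH-S cells and 24.0 RPKM in control cells, a ratio of 0.910 (interval 0.799 to 1.03). The remaining 8 mitochondrial genes lay between -0.10 for YARS2 and 0.14 for CARS2 on the log2 scale, with CARS2, EARS2, NARS2 and HARS2 above 0 and LARS2, VARS2, WARS2 and YARS2 below 0. All 8 intervals included 1. CARS2 overlaps ING1, and EARS2 overlaps GGA2.

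Enzymes for the same amino acid were then set side by side in 17 pairs of a mitochondrial and a cytosolic gene. The scaling by transcript length and library size cancels there between libraries, though a trend of the log2 value with length does not. In 16 pairs the mitochondrial gene was the lower of the pair per length in both libraries. The cytosolic gene had a median of 4.88 times the RPKM of its mitochondrial partner in HADH-S cells and 4.64 times in control cells. The exception was cysteine, where CARS2 stood at 2.14 times the RPKM of CARS1 in HADH-S cells and at 2.05 times in control cells. LARS2 and LARS1 were far apart, with LARS1 at 11.8 times the RPKM of LARS2 in HADH-S cells and at 12.2 times in control cells, and LARS2 was scaled by a transcript of 10049 nt.

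The change of this mitochondrial to cytosolic ratio, HADH-S over control, ran from 0.722 to 1.4002, with 9 pairs above 1 and 8 below. Its exact conditional interval, covering counting error only, excluded 1 in 3 of the 17 pairs, and these went both ways. The share among pairs of other genes was not counted. Log ratios over all tested genes had a root mean square of 1.91 relative to counting error. The 3 pairs are thus not read as a result about synthetases. FARS2 over FARSB was 0.710 in HADH-S cells and 0.507 in control cells, a change of 1.4002 (interval 1.06 to 1.84), while FARS2 over FARSA changed by 1.07 (interval 0.813 to 1.41). MARS2 over MARS1 was 0.450 in HADH-S cells and 0.535 in control cells, a change of 0.841 (interval 0.717 to 0.987).

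PARS2 over EPRS1 was 0.0457 in HADH-S cells and 0.0633 in control cells, a change of 0.722 (interval 0.523 to 0.993). The other partner of EPRS1, EARS2 for glutamate, changed by 1.00 against it (interval 0.843 to 1.195). In 10 of the 17 pairs both genes had log2 values of the same sign. FARS2 and EPRS1 each stand in more than a single pair, and no count for unrelated genes was made beside it. The 10 pairs were alanine, cysteine, glutamate, histidine and FARS2 with FARSA above 0, and isoleucine, leucine, arginine, tryptophan and tyrosine below 0. HARS2, at 0.00, lay below 0 under each rescaling of the libraries.

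**Figure D3:**
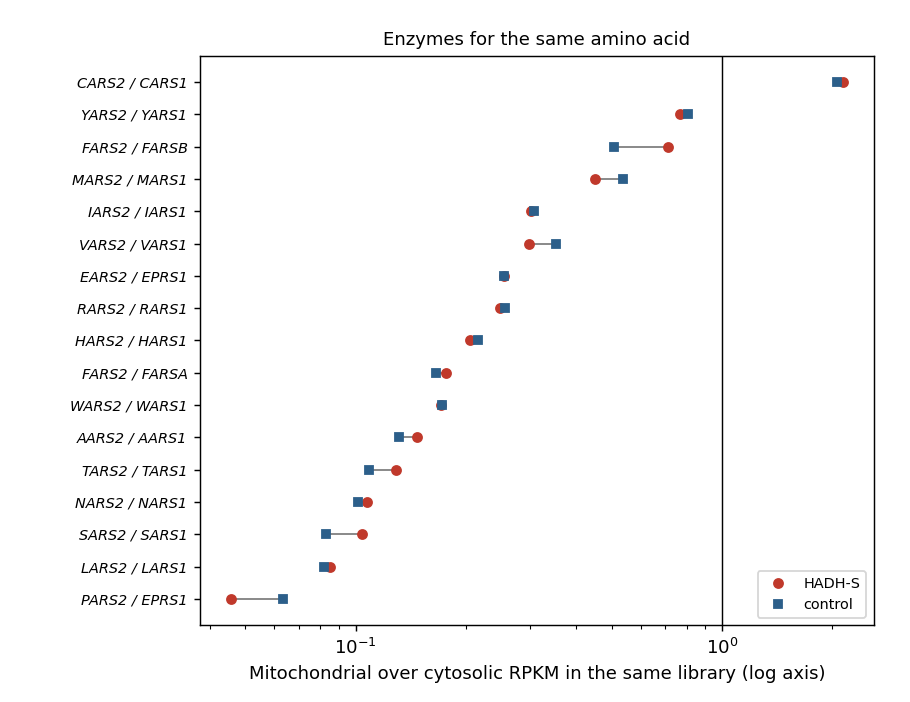
Mitochondrial over cytosolic RPKM within each library for 17 pairs of enzymes for the same amino acid, on a log axis, with HADH-S as red circles and control as blue squares. CARS2 over CARS1 is the pair right of 1, and the widest gaps between the libraries are those of FARS2 over FARSB, PARS2 over EPRS1 and SARS2 over SARS1.

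HARS1 and HARS2, for histidine, are neighbours on opposite strands with 84 bases between their starts, and that short stretch is shown because it lies upstream of both genes. It is written along the strand of HARS2, with the letters CCGGAA on either strand, the core bound by ETS transcription factors, in capitals. These letters, searched after the stretch had been seen, occur 3 times in it. They are found in 20 of the 30 members with a window, against 20.1% of all genes, whose windows were not limited to primary chromosomes.
HARS1 and HARS2 (chr5:140691371-140691454): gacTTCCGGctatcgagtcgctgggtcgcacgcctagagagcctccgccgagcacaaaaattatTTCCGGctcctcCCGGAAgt
HARS1 had 96.3 RPKM in HADH-S cells and 91.2 RPKM in control cells, and HARS2 had 19.7 RPKM in both libraries. Their ratios were 1.06 (interval 0.975 to 1.14) for HARS1 and 1.00 (interval 0.859 to 1.17) for HARS2.

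Synthetases fall into a pair of unrelated structural classes, and the classes were described beside each other. Of the 19 class I genes, 6 had a log2 value above 0 and 13 below, with a median of -0.05. Of the 17 class II genes, 11 were above 0 and 6 below, with a median of 0.03, and 10 were above 0 under each rescaling of the libraries. EPRS1, with a domain of each class, was counted in both. Over all tested genes, 52.2% had a value above 0.

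Among the 7 enzymes of the multisynthetase complex, 5 had log2 values below 0 (IARS1, KARS1, RARS1, LARS1 and QARS1) and MARS1 and EPRS1 lay above 0, with a median of -0.07. The intervals of IARS1 and KARS1 lay below 1, and the other 5 included 1. Of all tested genes, 11.6% had an interval below 1 and 52.2% had a log2 value above 0. The complex enzymes summed to 672 RPKM in HADH-S cells and 706 RPKM in control cells. The scaffold genes of the complex showed ratios near 1. AIMP1 had 26.9 RPKM in HADH-S cells and 26.8 RPKM in control cells, AIMP2 had 25.7 RPKM in HADH-S cells and 26.6 RPKM in control cells, and EEF1E1 had 60.9 RPKM in HADH-S cells and 57.95 RPKM in control cells. All 3 scaffold intervals included 1.

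The 13 synthetase genes known as ATF4 targets had a median log2 value of -0.02, with 6 above 0 and 7 below, and ran from -0.13 for IARS1 to 0.18 for VARS1. The 8 genes whose printed promoter stretches hold the ATF4 element had a median of 0.01, with 4 above 0. Among them 1 interval lay above 1 (GARS1) and 1 below (IARS1), beside 13.8% and 11.6% of tested genes. The values of these 8 ran from -0.13 to 0.11. The 22 members with a window but no such letters had a median of -0.04.

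The wider amino acid response had a median close to 0 as well. Of its 13 genes that passed the same minimum, 7 were above 0 and 6 below, with a median of 0.02. The interval lay above 1 for 2 (SLC7A5 and GCN1) and below 1 for PSAT1, beside 13.8% and 11.6% of tested genes. ATF4 itself had 95.4 RPKM in both libraries. The 3 largest absolute log2 values on the list were those of SLC7A5, DDIT3 and PSAT1. SLC7A5, a transporter of large neutral amino acids, had 31.7 RPKM in HADH-S cells and 26.3 RPKM in control cells, a ratio of 1.204 (interval 1.096 to 1.32). DDIT3, the stress transcription factor whose gene overlaps MARS1, had 10.1 RPKM in HADH-S cells and 12.2 RPKM in control cells, with an interval of 0.601 to 1.14. PSAT1, of serine synthesis, had 50.3 RPKM in HADH-S cells and 57.7 RPKM in control cells, a ratio of 0.871 (interval 0.789 to 0.961).

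WARS1 (ENSG00000140105, chromosome 14 from 100333790 to 100376327) was examined beside other genes known to be induced by interferon gamma. WARS1 had 55.2 RPKM from 1189 reads in HADH-S cells and 57.7 RPKM from 1208 reads in control cells, a log2 value of -0.06 and a ratio of 0.957 (interval 0.883 to 1.04). The libraries did not differ beyond counting error for WARS1.

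IRF1, a transcription factor on the list of interferon gamma genes, had 3.03 RPKM in HADH-S cells and 2.37 RPKM in control cells, with an interval of 0.895 to 1.84. GBP1, GBP2 and IDO1 had at most 4 reads in a library, and CIITA and CXCL10 had no row in either table. The RefSeq window at a start of WARS1 that lies 980 bases inside the gene holds the core of the interferon-stimulated response element, a GAAA that follows another after any 2 bases, searched on both strands and in capitals in the stretch below. That core was found in 2 of the 30 members with a window, WARS1 and EARS2. The share of all genes, not limited to primary chromosomes, was 4.38%. The window at the outer start of WARS1 did not hold the core.
WARS1 (chr14:100375363-100375432, minus strand): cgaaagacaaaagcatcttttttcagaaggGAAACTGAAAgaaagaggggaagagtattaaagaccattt
EARS2 had 24.8 RPKM in HADH-S cells and 24.1 RPKM in control cells, a ratio of 1.03 (interval 0.870 to 1.22).

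Genes that act after or beside charging were described from fixed lists. Of 6 tested genes of tRNA handling, 3 were above 0 and 3 below. The nuclear tRNA exporter XPOT had 38.8 RPKM in HADH-S cells and 43.5 RPKM in control cells, a ratio of 0.891 (interval 0.835 to 0.952). Its interval was the 1 on that list that excluded 1, beside 11.6% of tested genes with an interval below 1. AARSD1, related to the editing domain of alanyl-tRNA synthetase, rested on 15 reads in HADH-S cells and 20 in control cells, with an interval of 0.348 to 1.499. PTRH2, a peptidyl-tRNA hydrolase, had a ratio of 1.099 (interval 0.932 to 1.30).

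Of 8 mitochondrial partners, 4 were above 0 and 4 below, with a median of 0.00. The interval lay above 1 for 2 (TSFM and TUFM) and below 1 for 0, beside 13.8% and 11.6% of tested genes. TUFM, the mitochondrial elongation factor that carries charged tRNA, had 201 RPKM from 2809 reads in HADH-S cells and 184 RPKM from 2511 reads in control cells, a ratio of 1.09 (interval 1.03 to 1.15). TSFM, its exchange factor, had 59.3 RPKM in HADH-S cells and 49.7 RPKM in control cells, a ratio of 1.19 (interval 1.05 to 1.36). GATB, a subunit of the amidotransferase that makes mitochondrial glutaminyl-tRNA, had 19.1 RPKM in HADH-S cells and 16.95 RPKM in control cells (interval 0.955 to 1.33). GFM2, a factor for recycling mitochondrial ribosomes, had 24.9 RPKM in HADH-S cells and 27.96 RPKM in control cells (interval 0.791 to 1.01).

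The cytosolic elongation genes had a median of 0.01 over 5 members. EEF2, the translocase, had 1258 RPKM in HADH-S cells and 1129 RPKM in control cells, a ratio of 1.11 (interval 1.09 to 1.13). EEF1A1, the factor that delivers charged tRNA to the ribosome, had a ratio of 0.978 (interval 0.971 to 0.985). EEF1D, of its exchange complex, had a ratio of 1.06 (interval 1.02 to 1.096).

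**Figure D4:**
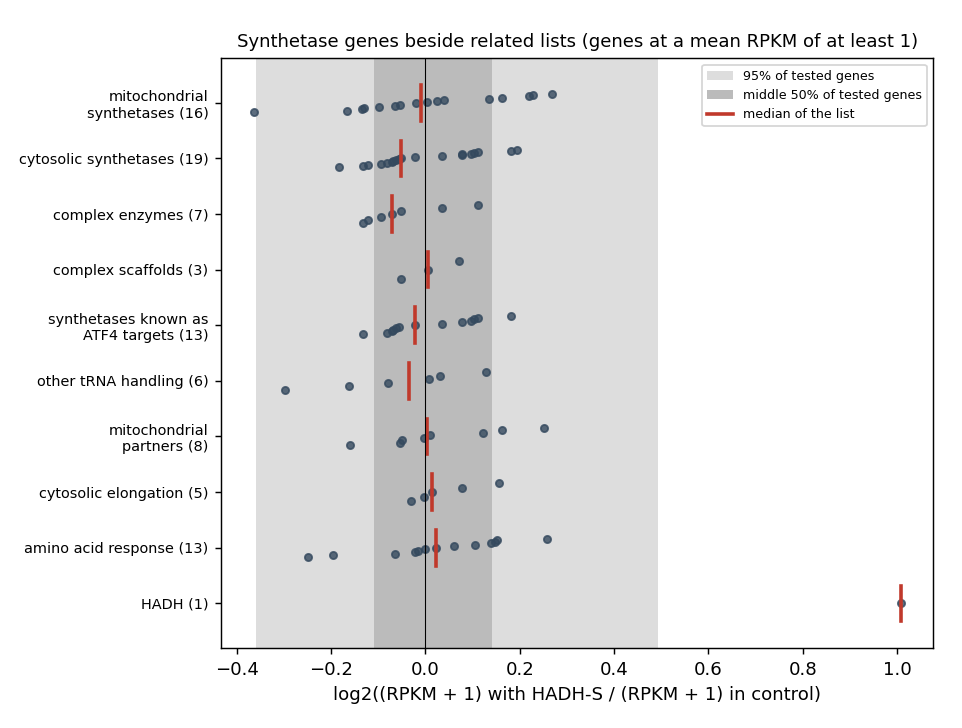
The log2 value of each tested gene as a dot, in 10 groups with the number of genes in parentheses and a red bar at the median, over grey bands for the middle 50% and the middle 95% of the 10331 tested genes. The medians lie at -0.01 for the mitochondrial and -0.05 for the cytosolic synthetases, inside the inner band, while HADH lies outside the outer band.

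Across the 35 members, the log2 value had a Spearman's rho of -0.19 with transcript length and -0.22 with mean RPKM, described here without a test. The same measure with length was -0.19 over all tested genes. These values for length were close, but a rho over 35 genes is imprecise, so no likeness to the whole table is concluded. The part of length in the members' values was not tested for single genes.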

How the data were processed

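The authors deposited 1 table of RPKM values per RNA library, per the file headers; each row label carries the gene symbol, Ensembl gene and transcript, coding bounds and transcript length. The submitters' processing notes name fastp 0.23.2, SAMtools 1.9, MACS2 1.4.2, ChIPseeker and GRCh38 for all samples alike; for the RNA aligner, counter and strand setting: not given in the sources used here. RPKM times length came out as whole reads within 0.01 for 100% of values, which gave each gene's reads. Genes without a read have no row. The log2 value used a pseudocount of 1, which understates changes of low genes, and tested genes had a mean RPKM of at least 1. Ratios carry exact conditional (Clopper-Pearson) 95% intervals, pairs the exact conditional interval of an odds ratio, and levels exact Poisson intervals, all for counting error only; reads here carry no molecular identifiers, so they are not independent molecules. With 1 library per condition no test was possible, and a floor of 3 reads is 0.137 RPKM in HADH-S cells and 0.141 RPKM in control cells at the median length. Members were matched by symbol, and all 35 identifiers had the same symbol in the reference name table. Members and lists were chosen with earlier results of these data known. Named in full were WARS1, EPRS1, GARS1, KARS1, QARS1, FARSA and FARSB, the 4 highest and 4 lowest log2 values in each compartment, and the 3 largest absolute values of each other list; further genes named were chosen after their values were seen, and some genes of the lists are not reported here. Coordinates and promoter windows are RefSeq's for GRCh38.p14. The code was checked on simulated reads, with Python 3.11.15, pandas 2.3.3, SciPy 1.17.1 and matplotlib 3.10.9.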

Additional observations from a re-analysis of the deposited data

How the results depend on the processing

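No paired analysis was possible because each condition has 1 library, and for the same reason no replicate could be left out. Alternatives were pseudocounts of 0.1, 0.5 and 5, 3 rescalings, other filters on low values, leaving out GARS1 and KARS1, means, removal of a trend with length, and folds of 1.5 and 2. The mitochondrial median ran from -0.03 to 0.00, above 0 only as a mean, the cytosolic median from -0.08 to 0.00, and their difference from 0.01 to 0.04. The number of members higher by 1.2-fold was 0 with a pseudocount of 5, with equal RPKM totals, with the median of tested genes set to 0, with equal 75th percentiles, without the length trend, and at folds of 1.5 and 2, since FARS2 lies at the limit. The number lower was 0 with a pseudocount of 5 and at folds of 1.5 and 2. The ratio of summed RPKM was 1.01 for the mitochondrial genes without IARS2. For the cytosolic genes it was 0.996 without IARS1 and 0.968 with equal RPKM totals. WARS1 ran from -0.09 to -0.06. The 19 genes named in full kept the sign of their log2 value in all 114 alternative values, from the 3 pseudocounts and 3 rescalings. A pseudocount cannot change a sign, and each rescaling moves all genes by a small, nearly equal step. EPRS1, the nearest of them to 0, ran from 0.01 to 0.03. The kept signs are therefore no support for any single gene. The mitochondrial genes have fewer reads, and a 1.2-fold difference in those with about 100 reads was not detectable beyond counting error.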
